A study of Mus musculus with 12 samples.

Results

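The genes described are 34 Nrf2 targets and antioxidant enzymes, with the factor and its sensor, by which cells handle peroxides, electrophiles, heme and iron. A place in this set does not by itself make a gene a Nrf2 target. The 34 genes were chosen by gene symbol from the 55487 gene IDs of the count table, and all 34 symbols were found. Of these, 33 had enough reads to be tested, together with 19182 genes in all. *Nqo1*, which encodes a quinone reductase often used as a readout of Nrf2 activity, had 21 reads in all, with 0 to 5 in each library, and was not tested.

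RNA was sequenced from BV2, an immortalised mouse microglial line, after culture in medium with normal glucose (NG) or high glucose (HG), each alone or with CD200Fc at 50 ng/mL. CD200Fc joins the extracellular ligand CD200 to an antibody Fc part and engages the CD200 receptor of myeloid cells. Each of the 4 groups (NG, HG, NG+CD200Fc and HG+CD200Fc) had 3 libraries, and all came from the same cell line. The sources used here state neither glucose concentrations nor exposure times, and no group was labelled as an Fc-only or osmotic control. The labels contradict each other on the starting material, because the source names BV2 while a protocol field speaks of papain-digested retinas and sorting by GFP.

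Nrf2, encoded by *Nfe2l2*, is a transcription factor that binds antioxidant response elements near its target genes. In resting cells the adaptor Keap1 hands it to a ubiquitin ligase for degradation, and oxidation or alkylation of Keap1 cysteines lets Nrf2 accumulate. Its targets supply glutathione, recharge thioredoxin, degrade heme and store iron. In microglia, which make superoxide when activated, this programme is studied as a counterweight to oxidative and inflammatory activity. Because Nrf2 is regulated largely at the protein level, transcript counts of *Nfe2l2* and *Keap1* do not measure its activity.

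Total counts ran from 21450000 to 31910000 per library. Microglial and macrophage markers summed to 4420 to 4591 CPM (counts scaled by library size) in NG, 4367 to 4934 in HG, 4171 to 4337 in NG+CD200Fc and 3883 to 4122 in HG+CD200Fc, and all 12 markers averaged at least 1 CPM. Of the homeostatic microglial markers, *P2ry12* averaged 1.68 CPM, *Cx3cr1* 2.68 CPM and *Tmem119* 13.8 CPM. Of the 10 retinal neuron markers only *Pde6b* exceeded 5 CPM on average, at 32.5 CPM. The photoreceptor gene *Prph2* averaged 1.52 CPM but reached 16.9 CPM in its highest library, with 0 CPM in the lowest. Markers of endothelium and mural cells, 6 genes, summed to 6.07 to 6.60 CPM in HG against 4.28 to 4.58 CPM in NG, and their part in the results was not tested. HG replicate 2 stood apart: ribosomal RNA genes took 1.53% of its counts against at most 0.122% elsewhere. Replicate 2 was the lowest HG library for 27 of the 33 tested genes, and HG replicate 1 was the highest for most of the 33. The same counts over all genes were not made. Nothing says that the libraries of a group were separate cultures, so the p-values may reflect technical spread alone.

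The antioxidant response element links the factor to its targets, so promoter stretches of 5 of the 34 genes are shown. The core TGACNNNGC was searched on both strands in windows of 300 bases, 250 before to 50 after each transcription start (RefSeq, GRCm38.p6). It was present in 8 of 29 genes with a window (27.6%: *Gclm*, *Txnrd1*, *Nfe2l2*, *Prdx1*, *Me1*, *Blvra*, *Sod1* and *Srxn1*), against 14.0% of 27025 gene symbols with a window. Counted by window, the share was 21.1% of 38 windows against 12.4% of 32851. No window was available for *Gclc*, *Gsr*, *Hmox1*, *Prdx6* and *Abcc1*, so these were not searched. A match is a description of these letters and not evidence of binding. Capitals mark the core, which reads GCNNNGTCA where it lies on the other strand. The stretches are given in the direction of transcription, with the place of the first printed base of the core relative to the start.
*Gclm*, chr3:122245363-122245451, plus strand, core 134 bases before the start: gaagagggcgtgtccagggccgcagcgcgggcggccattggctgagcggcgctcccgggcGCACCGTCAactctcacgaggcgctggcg
*Txnrd1*, chr10:82859054-82859142, plus strand, core 92 bases before the second of 3 starts: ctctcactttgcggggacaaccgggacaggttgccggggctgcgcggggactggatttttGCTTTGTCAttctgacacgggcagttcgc
*Prdx1*, chr4:116685406-116685494, plus strand, core 133 bases before the start: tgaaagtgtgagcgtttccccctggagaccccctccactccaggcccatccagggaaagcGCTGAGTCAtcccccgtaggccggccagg
*Me1*, chr9:86695892-86695980, minus strand, core beginning 6 bases before the start and running across it: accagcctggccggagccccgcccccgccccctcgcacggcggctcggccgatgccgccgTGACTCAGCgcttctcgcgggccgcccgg
*Nfe2l2*, chr2:75704875-75704913, minus strand, core 240 bases before the start, at the edge of the window: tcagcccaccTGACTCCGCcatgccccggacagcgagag
The cores of *Prdx1* and *Me1* also hold TGANTCA, the letters of the AP-1 element, while those of *Gclm*, *Txnrd1* and *Nfe2l2* do not. *Gclm* and *Txnrd1* fell in HG against NG, where the other genes shown did not pass. When CD200Fc was added to HG, *Gclm*, *Txnrd1* and *Me1* rose, and *Prdx1* and *Nfe2l2* fell.

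Transcript levels of the 34 genes spanned a wide range when set per kilobase of exon. The ferritin heavy chain gene *Fth1*, whose product oxidises and stores iron, averaged 2215 CPM per kb and ranked 6 among 19147 genes. The light chain gene *Ftl1* averaged 959 CPM per kb and the glutathione peroxidase gene *Gpx1* 372 CPM per kb. At the low end were *Slc7a11*, the cystine importer, at 1.25 CPM per kb, and *Nqo1* at 0.0459 CPM per kb. Together the 34 genes took 1.28 to 1.57% of all counts, and 0.442 to 0.536% without the ferritin genes. Reads of *Fth1*, *Ftl1*, *Prdx1* and *Txn1* may be shared with processed pseudogenes, and those of *Gstm1* and *Gstp1* with close paralogs, so their counts are less certain.

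**Figure D1:**
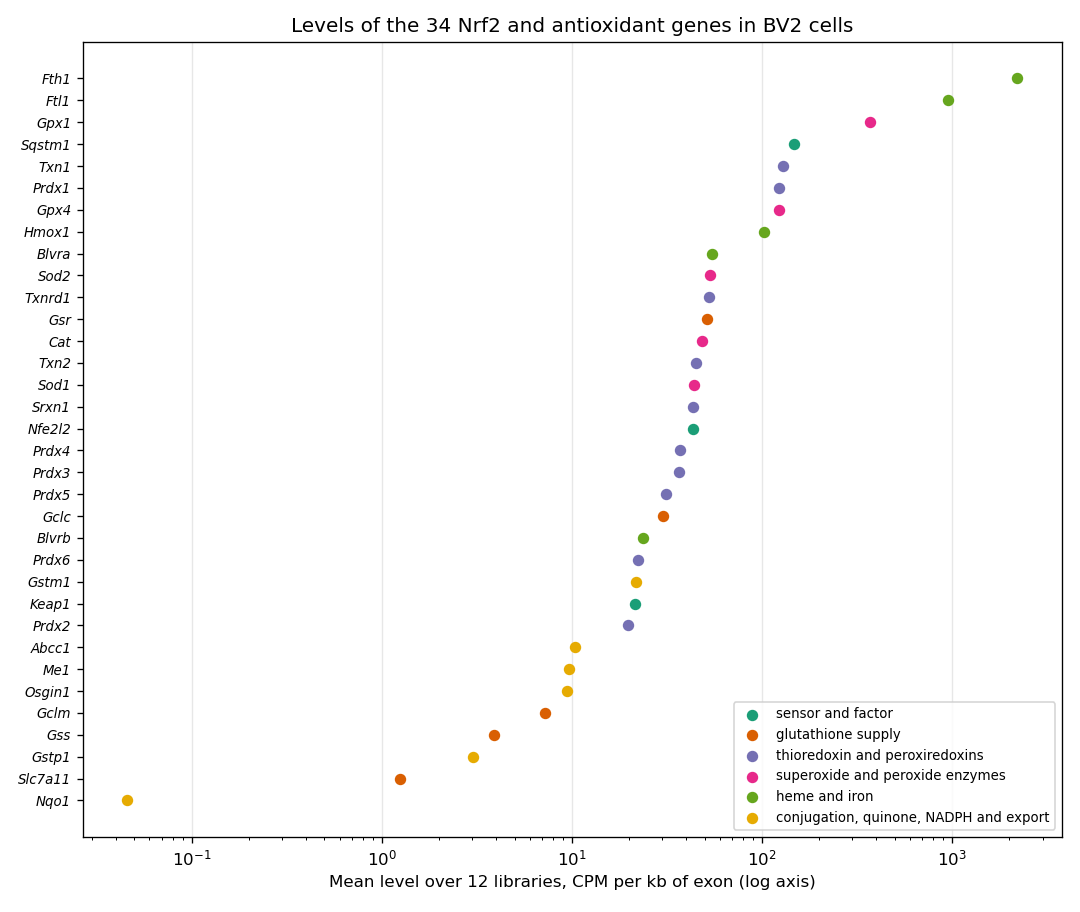
Mean level of each of the 34 genes over the 12 libraries, in CPM per kilobase of exon on a log axis, coloured by the role of the product. *Fth1* at 2215 and *Ftl1* at 959 CPM per kb lie at the top and *Nqo1* at 0.0459 lies apart at the bottom.

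High glucose without CD200Fc lowered more of these genes than it raised. In HG against NG, 11 of 33 fell and 4 rose at an adjusted p under 0.05 (edgeR quasi-likelihood test, adjusted over all genes), which is 45.5% against 24.6% of all genes tested. By direction, 33.3% fell against a background of 12.9%, and 12.1% rose against 11.7%. Their median log2 fold change was -0.13 against 0.02 for all genes. In bulk RNA, fewer cells in a given state and less RNA per cell cannot be told apart. The libraries of the groups did not overlap for 13 genes lower in HG (19.8% of all genes) and 5 higher (19.9% of all genes). Without HG replicate 2, 9 fell and 4 rose, and without HG replicate 1, 17 fell and 4 rose.

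CD200Fc added to high glucose moved the genes in both directions. In HG+CD200Fc against HG, 7 rose and 8 fell, again 45.5% of 33, against 17.8% of all genes (9.46% higher and 8.3% lower), with a median log2 fold change of -0.11 against -0.02. The libraries did not overlap for 8 genes higher (15.3% of all genes) and 12 lower (16% of all genes). The number that fell was less stable than the number that rose, with 4 falling without HG replicate 1, without HG+CD200Fc replicate 2 or without HG+CD200Fc replicate 3, and 12 without HG replicate 2, while 5 to 8 rose in these fits. This comparison and HG against NG share the HG libraries, so opposite changes in the pair are not independent of each other.

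With CD200Fc in both arms, the glucose comparison called fewer of the genes. In HG+CD200Fc against NG+CD200Fc, 5 fell and 1 rose (18.2%, against 8.3% of all genes, 3.65% lower and 4.65% higher). The libraries did not overlap for 14 genes lower (14.2% of all genes) and 3 higher (13% of all genes). Only 2 genes passed without NG+CD200Fc replicate 1, without NG+CD200Fc replicate 3 or without HG+CD200Fc replicate 2, and 3 passed without HG+CD200Fc replicate 3, while 10 passed without HG replicate 1. In normal glucose, CD200Fc gave no call, with 0 of 33 passing by edgeR, DESeq2 or limma voom, against 0% of all genes. At an unadjusted p under 0.05 there were 2 of the 33, *Gclm* and *Hmox1*, and 1147 of all 19182. The log2 fold change was negative for 28 of the 33, with a median of -0.09 against -0.00033 for all genes. The libraries did not overlap for 4 genes lower with CD200Fc (6.16% of all genes) and 1 higher (5.71% of all genes).

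**Figure D2:**
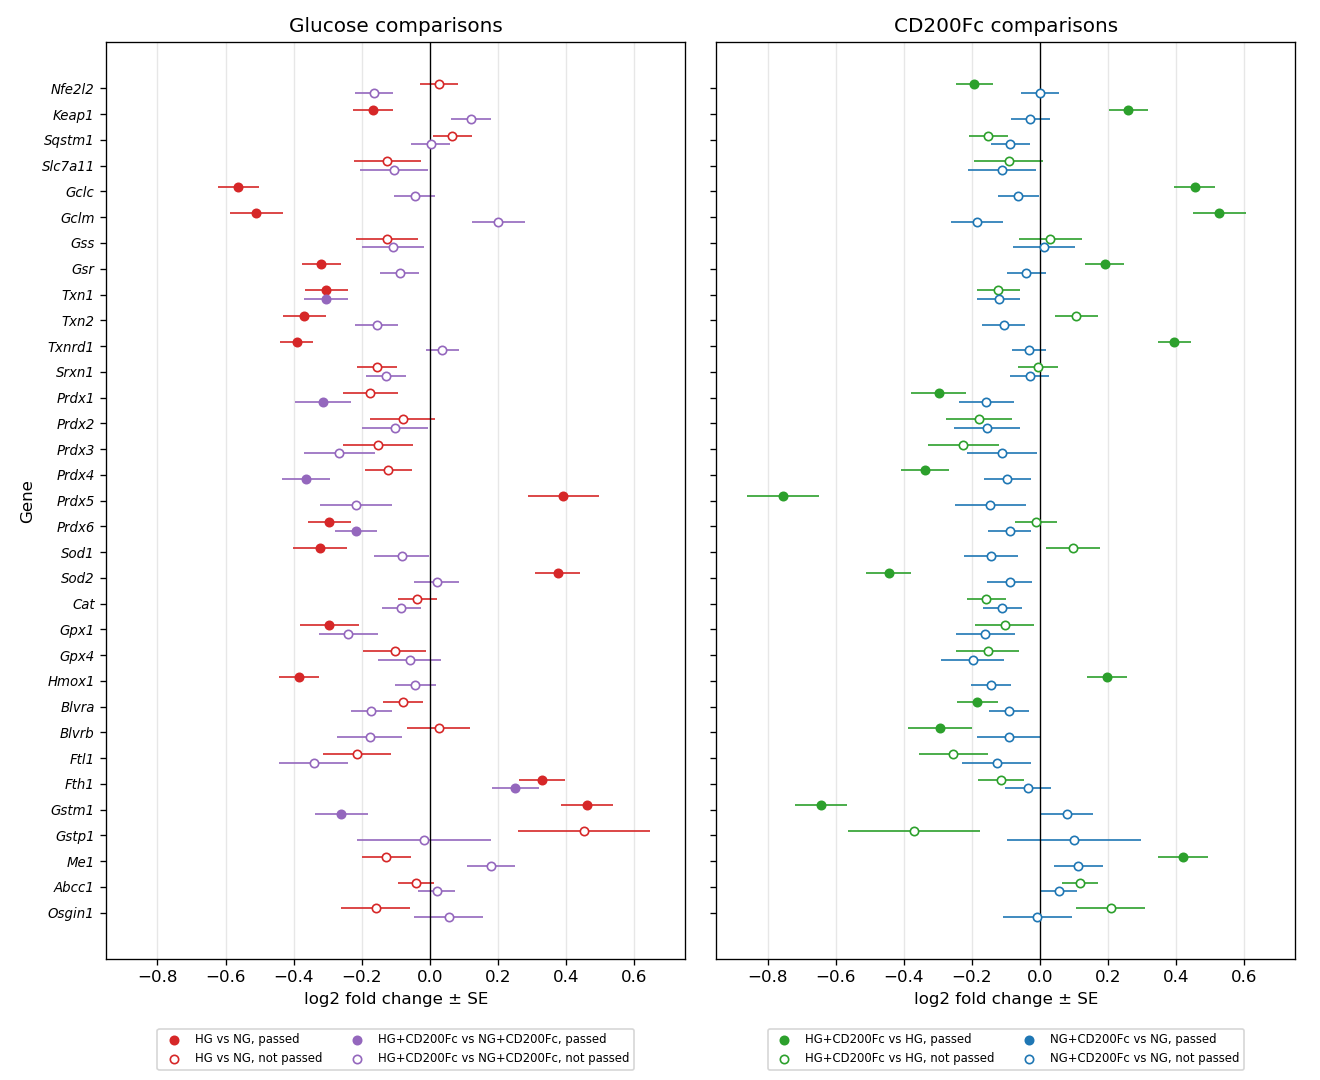
Log2 fold change with its standard error for the 33 tested genes, in the glucose comparisons (left) and the CD200Fc comparisons (right); filled points passed at an adjusted p under 0.05. *Gclc* and *Gclm* lie farthest to the left in HG against NG, and no point is filled for CD200Fc in normal glucose.

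Of the sensor and the factor, *Keap1* fell in HG against NG and *Nfe2l2* did not pass there, and when CD200Fc was added to HG *Keap1* rose and *Nfe2l2* fell. *Keap1* (ENSMUSG00000003308, chromosome 9, 21229730 to 21239361, minus strand) was at 106, 99.3 and 103 CPM in NG and 92.9, 87.2 and 94.0 CPM in HG. It was at 99.7, 106 and 96.4 CPM in NG+CD200Fc and 104, 113 and 111 CPM in HG+CD200Fc. The HG libraries were thus the lowest of all 12, and those of HG+CD200Fc lay above them without overlap. *Keap1* fell in HG against NG with a log2 fold change of -0.17 ± 0.058 (standard error; adjusted p = 0.0353) and rose in HG+CD200Fc against HG by 0.26 ± 0.058 (adjusted p = 0.00193). The fall was lost without HG replicate 2 (adjusted p = 0.135), NG replicate 1 (0.0974) or NG replicate 3 (0.0602), and with upper quartile scaling (0.0916) or no low-count filter (0.0553).

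*Nfe2l2* (ENSMUSG00000015839, chromosome 2, 75675513 to 75704641, minus strand) was at 176, 163 and 167 CPM in NG and 176.5, 176 and 163 CPM in HG. It was at 166, 170.1 and 169 CPM in NG+CD200Fc and 159.5, 148 and 144 CPM in HG+CD200Fc, the lowest 3 of the 12 libraries. The NG and HG libraries overlapped, with a log2 fold change of 0.03 ± 0.055 (adjusted p = 0.775). The high glucose libraries with CD200Fc lay below those of NG+CD200Fc, by -0.17 ± 0.055, which did not pass (adjusted p = 0.0633) but did in 6 of 21 alternatives, among them DESeq2 (0.0336) and limma voom (0.0234). In HG+CD200Fc against HG *Nfe2l2* fell by -0.19 ± 0.055 (adjusted p = 0.0145), which was lost without HG replicate 1 (0.0735), HG+CD200Fc replicate 2 (0.065) or HG+CD200Fc replicate 3 (0.11), and after removal of a per-library trend in exon length and GC content (0.0699). *Sqstm1*, whose product p62 binds Keap1 and carries it to autophagy, passed in no comparison, with 451 to 573 CPM across libraries, although 4 of 21 alternatives called it lower in HG+CD200Fc against HG.

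Glutathione supply gave the largest falls under high glucose: 3 of its 5 genes fell in HG against NG and none rose (12.9% and 11.7% of all genes). Under CD200Fc in both arms 0 of 5 passed, where 8.3% of all genes did, and 5 genes are too few to show a lack of calls. There the high glucose libraries lay higher for *Gclm* and lower for *Gclc* without overlap (13% and 14.2% of all genes). Neither passed (adjusted p = 0.102 and 0.713). *Gclc* encodes the catalytic subunit of glutamate-cysteine ligase, the rate-limiting enzyme of glutathione synthesis (ENSMUSG00000032350, chromosome 9, 77754535 to 77794485, plus strand). Its level was 134.5, 121 and 130.2 CPM in NG, 90.3, 78.9 and 91.8 CPM in HG, 124, 123 and 121 CPM in NG+CD200Fc and 118, 120.2 and 119.8 CPM in HG+CD200Fc. Every HG library lay below every other library, and the HG mean was 67.7% of the NG mean against 92.8% in HG+CD200Fc. *Gclc* fell in HG against NG by -0.56 ± 0.060 (adjusted p = 9.93e-08) and rose in HG+CD200Fc against HG by 0.45 ± 0.060 (adjusted p = 3.34e-06).

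*Gclm*, the modifier subunit of the same ligase (ENSMUSG00000028124, chromosome 3, 122245557 to 122270732, plus strand), was also lowest in HG. It was at 54.7, 47.5 and 49.1 CPM in NG, 33.1, 33.0 and 40.2 CPM in HG, 43.4, 45.8 and 43.9 CPM in NG+CD200Fc and 49.8, 53.3 and 50.0 CPM in HG+CD200Fc. The HG libraries were again the lowest 3, at a mean of 70.3% of NG, and HG+CD200Fc stood at 101% of NG. *Gclm* fell in HG by -0.51 ± 0.077 (adjusted p = 1.84e-05) and rose with CD200Fc in HG by 0.53 ± 0.077 (adjusted p = 1.43e-05). In normal glucose the NG+CD200Fc libraries lay below the NG libraries, with a difference of -0.18 ± 0.076 that did not pass (adjusted p = 0.816).

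*Gsr*, the reductase that regenerates glutathione from its disulfide, averaged 154 ± 2.80 CPM (SD, n = 3 here and below) in NG, 123.5 ± 7.68 in HG and 141 ± 7.51 in HG+CD200Fc. It fell in HG by -0.32 ± 0.057 (adjusted p = 0.000152) and rose with CD200Fc in HG by 0.19 ± 0.057 (adjusted p = 0.02). The rise was lost without HG replicate 2 (adjusted p = 0.107) or HG+CD200Fc replicate 3 (0.155). *Gss*, glutathione synthetase, ranged from 20.9 to 26.1 CPM and *Slc7a11* from 14.9 to 19.2 CPM, and neither passed in any comparison.

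**Figure D3:**
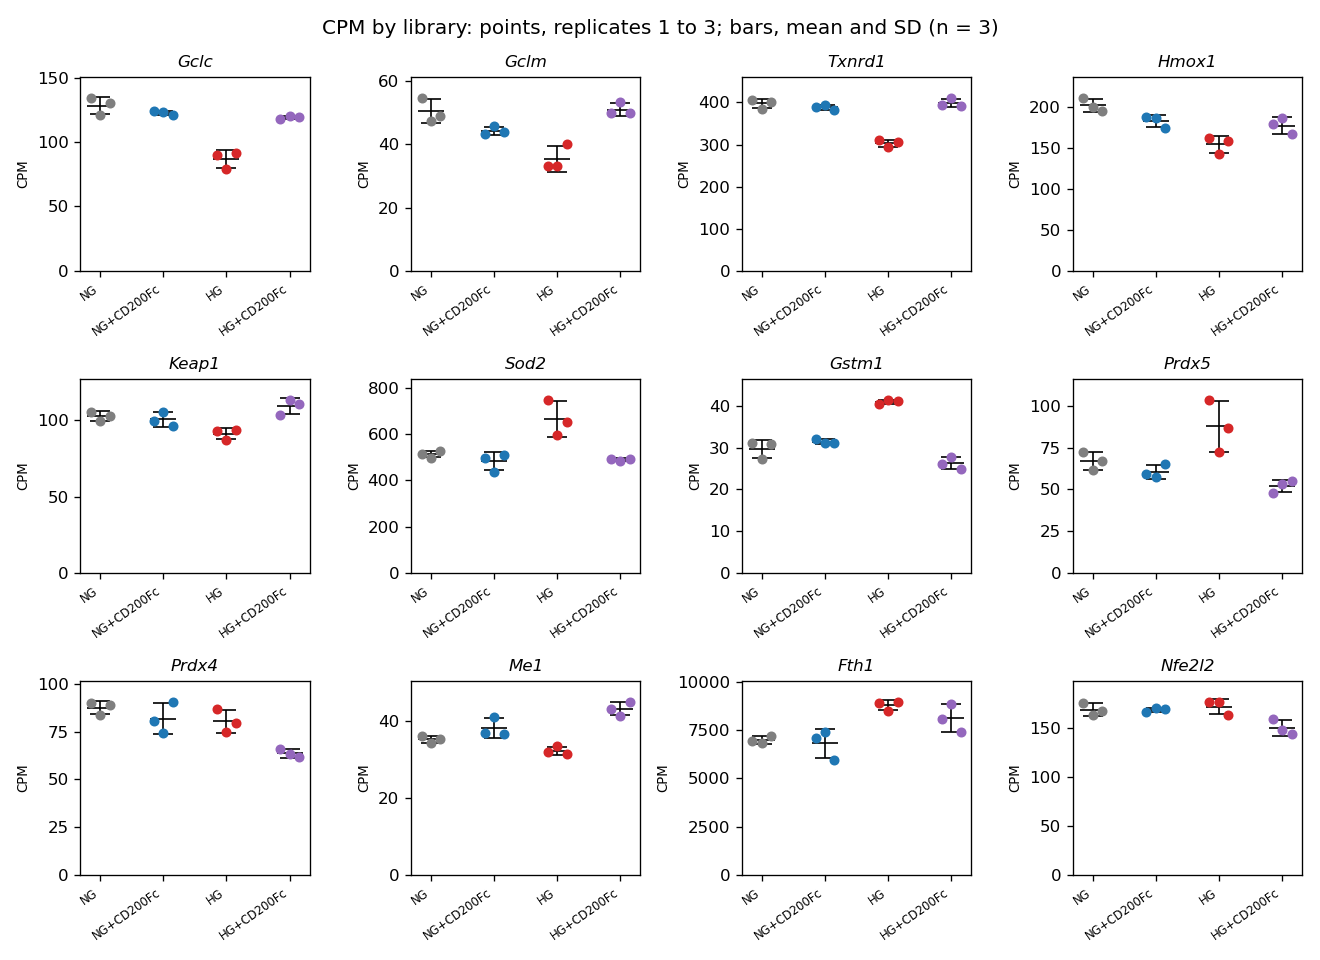
Level in CPM of 12 of the genes in each library, by group, with mean and SD of 3 libraries and axes from 0. For *Gclc*, *Gclm*, *Txnrd1* and *Hmox1* the HG points are the lowest, and for *Sod2*, *Gstm1* and *Prdx5* they are the highest.

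In the thioredoxin and peroxiredoxin system 4 of 10 genes fell and 1 rose in HG against NG (12.9% and 11.7% of all genes). Under CD200Fc in both arms 4 fell and none rose (3.65% and 4.65% of all genes). *Txnrd1*, the cytosolic thioredoxin reductase, which is a selenoprotein (ENSMUSG00000020250, chromosome 10, 82833951 to 82897712, plus strand), was at 407, 385 and 402 CPM in NG and 389.9, 394 and 382 CPM in NG+CD200Fc. It was at 311, 294 and 305 CPM in HG and 393, 411 and 392 CPM in HG+CD200Fc, so the HG libraries lay well below all 9 others. *Txnrd1* fell in HG by -0.39 ± 0.049 (adjusted p = 1.21e-06) and rose with CD200Fc in HG by 0.39 ± 0.049 (adjusted p = 1.31e-06). The HG+CD200Fc mean equalled 100% of the NG mean, against 76.3% in HG.

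*Txn1*, cytosolic thioredoxin, was lower in high glucose with and without CD200Fc. It was at 162, 156 and 150.4 CPM in NG and 139.5, 118 and 122 CPM in HG, and at 141.5, 134 and 155 CPM in NG+CD200Fc and 115, 117 and 117 CPM in HG+CD200Fc. Neither pair of groups overlapped. *Txn1* fell by -0.30 ± 0.063 in HG against NG (adjusted p = 0.000753) and by -0.30 ± 0.064 in HG+CD200Fc against NG+CD200Fc (adjusted p = 0.00521).

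*Txn2*, the mitochondrial thioredoxin, was at 221, 209.9 and 215 CPM in NG, 186, 147 and 167 CPM in HG, 198, 198 and 204 CPM in NG+CD200Fc and 178, 187 and 174 CPM in HG+CD200Fc. High glucose libraries lay below normal glucose libraries with and without CD200Fc. *Txn2* fell in HG against NG by -0.37 ± 0.063 (adjusted p = 8.48e-05), and the difference under CD200Fc, -0.16 ± 0.063, did not pass (adjusted p = 0.126). *Srxn1*, sulfiredoxin, which repairs overoxidised peroxiredoxins, ranged from 109 to 137 CPM and passed in none of the comparisons, although its HG libraries lay below those of NG (-0.16 ± 0.059, adjusted p = 0.0536) and 12 of 21 alternatives called it lower there (adjusted p = 0.00278 to 0.0439).

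The peroxiredoxins, which reduce hydrogen peroxide at a reactive cysteine, did not move as one. *Prdx5*, found in mitochondria, peroxisomes and cytosol (ENSMUSG00000024953, chromosome 19, 6906697 to 6910106, minus strand), was at 72.3, 61.9 and 67.0 CPM in NG and 104, 72.7 and 87.2 CPM in HG. It was at 59.0, 57.4 and 65.2 CPM in NG+CD200Fc and 48.0, 53.4 and 55.2 CPM in HG+CD200Fc, so that the HG libraries were the highest of all and those of HG+CD200Fc the lowest. *Prdx5* rose in HG by 0.39 ± 0.10 (adjusted p = 0.012) and fell with CD200Fc in HG by -0.75 ± 0.11 (adjusted p = 0.000105), the largest change of any of the 33 genes in a pairwise comparison. The rise was lost without NG replicate 3 (adjusted p = 0.0519) and when only the NG and HG libraries were fitted (0.0699).

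*Prdx4*, the peroxiredoxin of the endoplasmic reticulum (ENSMUSG00000025289, chromosome X, 155323918 to 155340754, minus strand), was at 89.9, 83.7 and 89.0 CPM in NG, 86.7, 74.9 and 79.6 CPM in HG, 80.7, 74.2 and 90.6 CPM in NG+CD200Fc and 66.2, 63.1 and 61.6 CPM in HG+CD200Fc. The HG+CD200Fc libraries were the lowest 3 of the 12, while the other groups overlapped. *Prdx4* fell in HG+CD200Fc against NG+CD200Fc by -0.36 ± 0.069 (adjusted p = 0.00283) and against HG by -0.34 ± 0.070 (adjusted p = 0.000827).

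*Prdx1*, an abundant cytosolic peroxiredoxin, was at 450.1, 413 and 425 CPM in NG, 417, 358 and 366 CPM in HG, 374, 345 and 435 CPM in NG+CD200Fc and 338, 281 and 309 CPM in HG+CD200Fc. Its HG+CD200Fc libraries were also the lowest 3. *Prdx1* fell in HG+CD200Fc against NG+CD200Fc by -0.31 ± 0.081 (adjusted p = 0.0237) and against HG by -0.30 ± 0.081 (adjusted p = 0.0149). The former was lost without NG+CD200Fc replicate 1 (0.0508), NG+CD200Fc replicate 3 (0.11), HG+CD200Fc replicate 2 (0.138) or HG+CD200Fc replicate 3 (0.0812), and the latter without HG replicate 1 (0.0899), HG+CD200Fc replicate 2 (0.0863) or HG+CD200Fc replicate 3 (0.0528). After removal of the exon length and GC trend the adjusted p was 0.137 and 0.15. In HG against NG *Prdx1* did not pass (-0.17 ± 0.081, adjusted p = 0.13), but 6 of 21 alternatives called it lower (0.0146 to 0.0324).

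*Prdx6*, the peroxiredoxin that also has phospholipase activity, was at 126, 116 and 118 CPM in NG and 103, 90.1 and 100 CPM in HG. It was at 111, 106 and 121.5 CPM in NG+CD200Fc and 98.8, 96.9 and 95.2 CPM in HG+CD200Fc, with no overlap between glucose levels in either pair. *Prdx6* fell by -0.30 ± 0.062 in HG against NG (adjusted p = 0.000853) and by -0.22 ± 0.063 in the pair with CD200Fc (adjusted p = 0.0305). The second fall was lost with upper quartile scaling (adjusted p = 0.0543) and without NG+CD200Fc replicate 1 (0.0627), NG+CD200Fc replicate 3 (0.218), HG+CD200Fc replicate 2 (0.119) or HG+CD200Fc replicate 3 (0.12). *Prdx2* ranged from 49.5 to 74.0 CPM and the mitochondrial *Prdx3* from 39.6 to 64.5 CPM, and they passed in no comparison. *Prdx3* was called lower with CD200Fc in both arms in 5 of 21 alternatives, and in HG+CD200Fc against HG in 3 of 21. *Prdx2* was called lower in HG against NG without HG replicate 1 (adjusted p = 0.0262). It was also called lower in HG+CD200Fc against HG without HG replicate 2 (0.0373).

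Of the enzymes that remove superoxide and peroxide, the superoxide dismutases went opposite ways under high glucose. *Sod2*, the manganese enzyme of mitochondria (ENSMUSG00000006818, chromosome 17, 13006846 to 13040063, plus strand), was at 513, 499 and 527 CPM in NG, 748, 595 and 654 CPM in HG, 498, 438 and 511.5 CPM in NG+CD200Fc and 494, 481.5 and 492 CPM in HG+CD200Fc. All HG libraries lay above the other 9, at a mean of 130% of NG. *Sod2* rose in HG by 0.38 ± 0.066 (adjusted p = 0.000152) and fell with CD200Fc in HG by -0.44 ± 0.066 (adjusted p = 2.32e-05). The rise had an adjusted p of 0.06 after removal of the exon length and GC trend.

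*Sod1*, the copper-zinc enzyme of the cytosol, averaged 196.5 ± 17.2 CPM in NG, 157 ± 19.2 in HG, 178 ± 11.1 in NG+CD200Fc and 168 ± 10.7 in HG+CD200Fc. It fell in HG against NG by -0.32 ± 0.080 (adjusted p = 0.00489) and passed in no other comparison. *Gpx1*, the abundant selenium-dependent glutathione peroxidase, averaged 618 ± 40.4 CPM in NG and 503.5 ± 70.1 in HG, and fell by -0.30 ± 0.087 (adjusted p = 0.0204). That fall was lost without NG replicate 1 (adjusted p = 0.07), HG replicate 2 (0.0562) or HG replicate 3 (0.0533). *Gpx1* did not pass with CD200Fc in both arms, but 7 of 21 alternatives called it lower. Catalase (*Cat*), at 111 to 138 CPM, and *Gpx4*, which reduces lipid peroxides and restrains ferroptosis, at 184 to 254 CPM, passed in no comparison. Of the 21 alternatives, 4 called *Cat* lower in HG+CD200Fc against HG. *Gpx4* was called lower in HG against NG without HG replicate 1 (adjusted p = 0.0124). It was also called lower in HG+CD200Fc against HG without HG replicate 2 (0.0152).

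Genes of heme breakdown and iron storage were divided as well. *Hmox1*, heme oxygenase 1, which opens the heme ring (ENSMUSG00000005413, chromosome 8, 75093621 to 75100589, plus strand), was at 211.5, 200.4 and 195 CPM in NG, 162.5, 143 and 159 CPM in HG, 188, 186 and 175 CPM in NG+CD200Fc and 179.7, 187 and 167 CPM in HG+CD200Fc. The HG libraries were the lowest 3, while the CD200Fc groups overlapped each other. *Hmox1* fell in HG by -0.38 ± 0.059 (adjusted p = 2.23e-05) and rose with CD200Fc in HG by 0.20 ± 0.059 (adjusted p = 0.0191). The rise was lost without HG replicate 2 (adjusted p = 0.111), HG+CD200Fc replicate 1 (0.0568) or HG+CD200Fc replicate 2 (0.116). In normal glucose the CD200Fc libraries lay below those of NG, by -0.14 ± 0.059, which did not pass (adjusted p = 0.816).

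*Fth1* (ENSMUSG00000024661, chromosome 19, 9980598 to 9985098, plus strand) was at 6940, 6828 and 7210 CPM in NG, 8918, 8485 and 8966 CPM in HG, 7102, 7408 and 5967 CPM in NG+CD200Fc and 8082, 8864 and 7424 CPM in HG+CD200Fc. Each high glucose library exceeded all normal glucose libraries. *Fth1* rose by 0.33 ± 0.068 in HG against NG (adjusted p = 0.0011) and by 0.25 ± 0.068 with CD200Fc in both arms (adjusted p = 0.0262). The second rise was lost without NG+CD200Fc replicate 1 (adjusted p = 0.0503), NG+CD200Fc replicate 3 (0.15), HG+CD200Fc replicate 1 (0.0519) or HG+CD200Fc replicate 2 (0.166), with only those groups fitted (0.0615), and after removal of the exon length and GC trend (0.133).

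The light chain gene *Ftl1* averaged 1469 ± 135 CPM in NG, 1266 ± 151 in HG, 1345 ± 175 in NG+CD200Fc and 1062 ± 28.6 in HG+CD200Fc, so its means ran below NG in the conditions in which *Fth1* was above it. It passed in no comparison, the nearest being HG+CD200Fc against NG+CD200Fc at -0.34 ± 0.10 (adjusted p = 0.0599). That fall passed in 11 of 21 alternatives (adjusted p = 0.00162 to 0.0473), and 6 of 21 called *Ftl1* lower in HG against NG (0.0106 to 0.0437) and in HG+CD200Fc against HG (0.0111 to 0.0333). The biliverdin reductase genes *Blvra* and *Blvrb*, which act after heme oxygenase, fell in HG+CD200Fc against HG. *Blvra* went from 137 ± 9.47 to 120.3 ± 4.41 CPM (-0.18 ± 0.059, adjusted p = 0.0299), and *Blvrb* from 71.2 ± 12.5 to 58.1 ± 0.806 CPM (-0.29 ± 0.095, adjusted p = 0.038). Without HG replicate 1 the adjusted p was 0.237 for *Blvra* and 0.205 for *Blvrb*. *Blvra* was also lost without NG replicate 3 (0.0569), NG+CD200Fc replicate 1 (0.0545), HG+CD200Fc replicate 2 (0.123) or HG+CD200Fc replicate 3 (0.117). It was lost too after removal of the exon length and GC trend, which moved its fold change to -0.10 (0.222). Among the fits that left out 1 library, *Blvrb* kept its call without NG replicate 1, NG replicate 3 or HG replicate 2, and had an adjusted p of 0.0502 to 0.205 in the others and 0.0519 with DESeq2 size factors.

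Of the conjugation, NADPH and export genes, *Gstm1* and *Me1* changed. *Gstm1* encodes a glutathione S-transferase that couples glutathione to electrophiles (ENSMUSG00000058135, chromosome 3, 108012255 to 108017973, minus strand). It was at 31.2, 27.3 and 30.8 CPM in NG, 40.4, 41.4 and 41.1 CPM in HG, 32.1, 31.1 and 31.1 CPM in NG+CD200Fc and 26.0, 27.8 and 24.9 CPM in HG+CD200Fc. The HG libraries were the highest 3 and closely spaced, and those of HG+CD200Fc lay below both HG and NG+CD200Fc. *Gstm1* rose in HG by 0.46 ± 0.076 (adjusted p = 5.22e-05) and fell with CD200Fc in HG by -0.64 ± 0.077 (adjusted p = 6.92e-07). It fell in HG+CD200Fc against NG+CD200Fc by -0.26 ± 0.077 (adjusted p = 0.036), and this was lost with upper quartile scaling (0.067), after removal of the exon length and GC trend (0.0734), with only those groups fitted (0.0529), and without NG+CD200Fc replicate 1 (0.105), NG+CD200Fc replicate 3 (0.113) or any of the HG+CD200Fc libraries (0.0704 to 0.148).

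*Me1*, malic enzyme 1, which makes cytosolic NADPH (ENSMUSG00000032418, chromosome 9, 86581371 to 86695953, minus strand), averaged 35.2 ± 0.921 CPM in NG, 32.2 ± 1.03 in HG, 38.1 ± 2.47 in NG+CD200Fc and 43.1 ± 1.76 in HG+CD200Fc. It rose in HG+CD200Fc against HG by 0.42 ± 0.072 (adjusted p = 0.000105) and passed in no other comparison. *Gstp1*, another glutathione S-transferase, was near the low end at 3.21 to 5.85 CPM. Its HG libraries lay above those of NG with a difference of 0.45 ± 0.19 that did not pass (adjusted p = 0.0918). *Abcc1*, an exporter of glutathione conjugates, ranged from 148 to 172 CPM and *Osgin1*, an oxidative stress-induced growth inhibitor, from 21.1 to 29.6 CPM, and they passed in no comparison. After removal of the exon length and GC trend, *Abcc1* (adjusted p = 0.00304) and *Osgin1* (0.0486) were called lower in HG against NG.

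**Figure D4:**
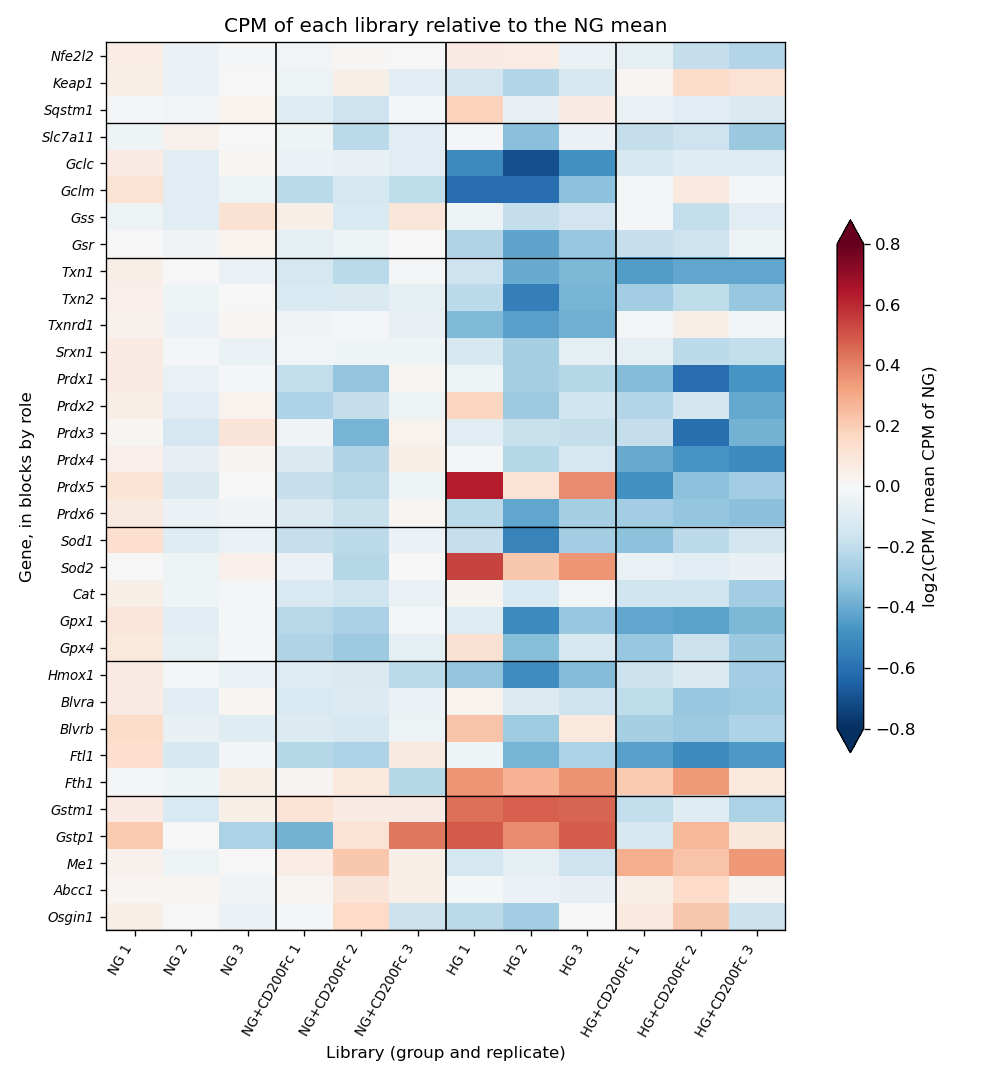
Level of each tested gene in each library relative to the NG mean, as log2 of the CPM ratio, with genes in blocks by role and libraries by group. In the HG columns *Gclc*, *Gclm*, *Gsr*, *Txnrd1*, *Txn1*, *Txn2* and *Prdx6* are among the blue rows and *Prdx5*, *Sod2*, *Fth1* and *Gstm1* are red, and in the HG+CD200Fc columns *Prdx1*, *Prdx4* and *Ftl1* are blue.

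Whether the CD200Fc effect depended on glucose was tested by the interaction, the CD200Fc difference in HG minus that in NG. It passed for 8 of 33 genes (24.2%, against 7.2% of all genes), 5 positive (3.62% of all genes) and 3 negative (3.58% of all genes). The positive ones were *Gclm* at 0.71 ± 0.11 (adjusted p = 9.18e-05), *Gclc* at 0.52 ± 0.085 (0.000204), *Txnrd1* at 0.43 ± 0.069 (0.000181), *Hmox1* at 0.34 ± 0.084 (0.01) and *Keap1* at 0.29 ± 0.082 (0.0294). The negative ones were *Gstm1* at -0.72 ± 0.11 (adjusted p = 7.2e-05), *Prdx5* at -0.61 ± 0.15 (0.0204) and *Sod2* at -0.36 ± 0.093 (0.0183). None of them passed for CD200Fc in normal glucose, where 0 of all 19182 genes did. With NG+CD200Fc replicate 3 or HG+CD200Fc replicate 2 left out, 5 genes passed the interaction. *Keap1* was lost without NG replicates 1 or 3, NG+CD200Fc replicates 1 or 3, HG replicate 2, or HG+CD200Fc replicates 2 or 3 (adjusted p = 0.0532 to 0.0794). *Prdx5* was lost without NG replicates 2 or 3, NG+CD200Fc replicate 3, or HG+CD200Fc replicates 1 or 2 (adjusted p = 0.0506 to 0.0685). *Sod2* was lost without NG replicates 1 or 2, NG+CD200Fc replicates 1 or 3, HG replicate 1, or HG+CD200Fc replicates 2 or 3 (adjusted p = 0.0505 to 0.0709). *Sod2* was also lost after removal of the exon length and GC trend (0.182), while *Gclc*, *Gclm*, *Hmox1*, *Txnrd1* and *Gstm1* passed in all 20 alternatives. *Gsr* and *Me1* did not pass but were called positive in 4 of the 20 each.

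The authors' deposited table of fold changes adds the comparison of HG+CD200Fc with NG, which spans both treatments at once. Among the 33 genes listed in the authors' deposited table, 14 were lower and 1, *Me1*, was higher there at a false discovery rate under 0.05, against 26.0% of its 15372 genes called in either direction. The share of all its genes by direction was not counted, and this comparison was not refitted here. All 6 peroxiredoxin genes were among the lower ones in the authors' deposited table, from -0.25 for *Prdx2* to -0.46 for *Prdx1* in log2 fold change, as were *Txn1*, *Txn2*, *Gpx1*, *Gpx4*, *Cat*, *Blvra*, *Blvrb* and *Ftl1*. *Gclc*, *Gclm*, *Txnrd1*, *Hmox1* and *Sod2* were not called for that comparison in the authors' deposited table. In HG against NG the authors' deposited table called 14 of the 33 (31.8% of its genes), with *Keap1* the sole difference from the calls given here, at a false discovery rate of 0.0588. In HG+CD200Fc against HG the authors' deposited table called the same 15 genes as here (22.6% of its genes), and its log2 fold changes for the 33 genes differed by at most 0.00908 in the comparisons that both have.

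Partners of Nrf2 and proteins of its turnover, 20 genes tested, were called in HG against NG in 3 cases higher and 3 lower (11.7% and 12.9% of all genes). *Pgam5*, a mitochondrial phosphatase that binds Keap1, fell from 92.9 ± 3.85 to 72.3 ± 6.07 CPM (-0.36 ± 0.066, adjusted p = 0.000196). *Nfe2l1*, a relative of Nrf2 with roles in proteasome supply, rose from 355.7 ± 19.7 to 422 ± 8.15 CPM (0.25 ± 0.051, adjusted p = 0.000692), and *Rbx1*, a subunit of the Keap1 ubiquitin ligase, fell from 87.8 ± 3.71 to 72.4 ± 4.56 CPM (-0.28 ± 0.067, adjusted p = 0.00288). *Amer1*, at 4.77 ± 0.947 CPM in NG and 7.13 ± 0.709 in HG, rose (0.58 ± 0.17, adjusted p = 0.0119), which was lost without NG replicate 2 (0.0729), NG replicate 3 (0.058) or HG replicate 2 (0.0575). In HG+CD200Fc against HG, 7 rose and 1 fell (9.46% and 8.3% of all genes). The rising genes included the coactivators *Crebbp* (0.52 ± 0.096, adjusted p = 0.00144) and *Ep300* (0.30 ± 0.065, adjusted p = 0.00128). They also included *Mafg*, a small Maf partner of Nrf2 (0.27 ± 0.059, adjusted p = 0.00144), and *Cul3*, the scaffold of the Keap1 ligase (0.28 ± 0.061, adjusted p = 0.00175). The median log2 fold change of the list was 0.08 there against -0.02 for all genes. With CD200Fc in both arms 3 rose and 1 fell (4.65% and 3.65% of all genes). In normal glucose CD200Fc gave 0 calls by edgeR (0% of all genes). There 1 gene had an unadjusted p under 0.05, against 1147 of all 19182.

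Further Nrf2 target genes, 26 tested, gave 4 falls and no rise in HG against NG (12.9% and 11.7% of all genes). Their falls were thus close in share to those of all genes. At an unadjusted p under 0.05 there were 6 of the 26, against 6824 of all 19182. The median log2 fold change of the list was -0.04 against 0.02 for all genes. The falling genes were *Mt1*, a metallothionein (-0.47 ± 0.069, adjusted p = 1.39e-05), *Slc48a1*, a heme transporter (-0.37 ± 0.057, adjusted p = 2.86e-05), and the pentose phosphate enzymes *Taldo1* (-0.24 ± 0.062, adjusted p = 0.00538) and *Pgd* (-0.20 ± 0.060, adjusted p = 0.0158). The call of *Pgd* was lost without NG replicate 1 (adjusted p = 0.0651) or HG replicate 2 (0.116). With CD200Fc in HG, 5 rose and 5 fell (9.46% and 8.3% of all genes). *Slc48a1* rose from 357 ± 29.6 to 423 ± 11.9 CPM (0.24 ± 0.057, adjusted p = 0.0029), while the conjugation genes *Mgst1* (-0.83 ± 0.14, adjusted p = 8.9e-05), *Gstm2* (-0.72 ± 0.13, adjusted p = 0.000133) and *Ugdh* (-0.41 ± 0.076, adjusted p = 0.00028) fell. With CD200Fc in both arms 1 rose and 5 fell (4.65% and 3.65% of all genes). In normal glucose CD200Fc gave 0 calls by edgeR (0% of all genes). No gene of the list had an unadjusted p under 0.05 there, against 1147 of all 19182.

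Further genes of the glutathione and thioredoxin systems, 35 tested, gave 6 rises and 11 falls in HG against NG (11.7% and 12.9% of all genes), with a median log2 fold change of -0.08 against 0.02 for all genes. The smallest p was that of *Txnip*, the thioredoxin-binding inhibitor, which rose from 102 ± 8.09 to 183 ± 8.39 CPM (0.84 ± 0.062, adjusted p = 1.1e-10). *Slc3a2*, the heavy chain that partners *Slc7a11* in cystine import and other light chains in amino acid transport, fell from 242 ± 4.02 to 198 ± 11.9 CPM (-0.29 ± 0.053, adjusted p = 0.000167). The mitochondrial glutaredoxin *Glrx5* (-0.45 ± 0.082, adjusted p = 3.00e-04) and the thioredoxin-like gene *Txnl1* (-0.39 ± 0.076, adjusted p = 0.000343) fell too. With CD200Fc in HG, 1 gene rose, *Slc3a2* (0.25 ± 0.053, adjusted p = 0.00109), and 7 fell (9.46% and 8.3% of all genes). Among these, *Txnip* fell to 123 ± 5.90 CPM (-0.57 ± 0.061, adjusted p = 1.23e-07) and *Msrb1*, a methionine sulfoxide reductase, from 62.4 ± 8.19 to 41.4 ± 0.328 CPM (-0.59 ± 0.080, adjusted p = 4.06e-06). The thioredoxin-related gene *Txndc17* fell from 44.9 ± 3.67 to 34.1 ± 3.21 CPM (-0.39 ± 0.077, adjusted p = 0.000461). With CD200Fc in both arms 1 rose, *Txnip* (0.33 ± 0.062, adjusted p = 0.00269), and 2 fell (4.65% and 3.65% of all genes). In normal glucose CD200Fc gave 0 calls by edgeR (0% of all genes). There 1 gene had an unadjusted p under 0.05, against 1147 of all 19182.

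Further iron, heme and ferroptosis genes, 30 tested, gave 6 rises and 4 falls in HG against NG (11.7% and 12.9% of all genes). *Cp*, which encodes the ferroxidase ceruloplasmin, was at 3.66 ± 0.102 CPM in NG, 9.40 ± 0.701 in HG, 3.84 ± 0.602 in NG+CD200Fc and 3.74 ± 0.414 in HG+CD200Fc. It rose in HG by 1.36 ± 0.17 (adjusted p = 7.56e-07) and fell with CD200Fc in HG by -1.33 ± 0.17 (adjusted p = 1.42e-06). Of the enzymes of heme synthesis, *Ppox* was higher in HG (0.65 ± 0.086, adjusted p = 2.62e-06) and *Alad* lower (-0.50 ± 0.090, adjusted p = 0.000298). In HG+CD200Fc against HG, 3 rose, among them the iron chaperones *Pcbp1* (0.35 ± 0.059, adjusted p = 7.05e-05) and *Pcbp2* (0.37 ± 0.057, adjusted p = 2.05e-05), and 8 fell (9.46% and 8.3% of all genes), *Ppox* among them (-0.54 ± 0.086, adjusted p = 4.34e-05). With CD200Fc in both arms 1 rose and 1 fell (4.65% and 3.65% of all genes). In normal glucose CD200Fc gave 0 calls by edgeR (0% of all genes). There 2 genes had an unadjusted p under 0.05, against 1147 of all 19182.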

How the data were processed

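RNA was sequenced after removal of ribosomal RNA with RNase H, from random-primed cDNA and paired reads of 150 bases, per the labels' protocols. The authors deposited raw counts per gene. Per the submitters' processing notes, the build was GRCm38 and the tools were STAR, Salmon, featureCounts of Subread, bcl2fastq, limma and edgeR. Their steps, the annotation release and the strand setting are not stated in those notes. The authors' deposited table of comparisons holds log2 fold changes, p-values and false discovery rates, and was used only where named. Its counts were identical to those of the count table for all 14517 symbols matched.

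The count table had 55774 lines, of which 287 were identical repeats and were dropped. Coordinates and exon lengths came from GENCODE M21 (GRCm38; 99.5% of IDs matched), and promoter sequences from RefSeq (GRCm38.p6). A low-count filter (filterByExpr, 4 groups) was applied, and counts were scaled by TMM and fitted with edgeR 4.0.16 (R 4.3.3, quasi-likelihood, robust) on all 12 libraries with 4 group means (biological coefficient of variation 0.0908). Adjusted p-values are Benjamini-Hochberg over 19182 genes within each of 5 contrasts, with a threshold of 0.05. CPM are counts scaled by TMM library sizes. Counts carry no molecular identifiers, so depth (21450000 to 31910000 per library) covers counting error only. Replicates differed beyond sampling noise (chi-square per degree of freedom 3.63 or more in every pair).

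The genes and lists were chosen with earlier results of these data known. Values in every library are given for *Nfe2l2*, *Keap1*, up to 6 genes of smallest p per pairwise contrast and every gene passing the interaction. From each further list the genes of smallest p that passed, up to 4, are named for HG against NG and HG+CD200Fc against HG, by fold change or group means; a gene that this rule names is not reported here. The further lists matched 133 of 134 symbols. Simulated counts for HG against NG tested the fit, with genes raised in HG only. Of 67 genes raised 1.25-fold 34.3% were recovered, of 67 raised 1.5-fold 61.2%, and of 66 raised 2-fold 83.3%. There were 11 false calls among 18523 unchanged genes. The raised genes were not matched in level to the genes described, so these shares are not the power for them. Alternatives were DESeq2 size factors, upper quartile scaling, no filter, a stricter filter, DESeq2 1.42.0, limma 3.58.1 voom with quality weights, a replicate block, a trend on exon length and GC content removed, only the compared groups, and leaving out each library.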

Additional observations from a re-analysis of the deposited data

Results flagged for a closer look

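For 8 genes the CD200Fc difference in high glucose departed from that in normal glucose by the interaction test, and these are the values to look at again. On the log2 scale the interaction was 0.29 for *Keap1*, 0.52 for *Gclc*, 0.71 for *Gclm*, 0.34 for *Hmox1* and 0.43 for *Txnrd1*, so CD200Fc went with a higher level in HG than its difference in NG would give. It was -0.61 for *Prdx5*, -0.36 for *Sod2* and -0.72 for *Gstm1*, the opposite direction. All of these rest in part on the HG libraries, where replicate 2 had 1.53% of its counts in ribosomal RNA genes. Without HG replicate 2, 4 genes were positive and 4 negative in the interaction test, and without HG replicate 1, 7 and 2.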

How the results depend on the processing

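No gene called in any contrast changed direction in any alternative. Of the called genes, 11 of 15 in HG against NG, 9 of 15 in HG+CD200Fc against HG, 2 of 6 (*Prdx4* and *Txn1*) in HG+CD200Fc against NG+CD200Fc and 5 of 8 in the interaction kept their call in every alternative. Leaving out 1 library at a time gave 13 to 21, 10 to 17, 2 to 10 and 5 to 9 calls in these contrasts in the same order, and 0 in NG+CD200Fc against NG; the interaction had 5 calls without NG+CD200Fc replicate 3 or HG+CD200Fc replicate 2. The least stable count was HG+CD200Fc against NG+CD200Fc (6 calls), with 10 under no filter, 10 by DESeq2, 13 by limma voom and 11 with the replicate block; the cause was not tested. Other settings gave 14 to 18 calls in HG against NG, 12 to 19 in HG+CD200Fc against HG and 8 to 10 in the interaction. The labels number the replicates, but same-numbered libraries deviated together with correlations of only -0.07 to 0.19. Libraries numbered 2 correlated positively in every pair (0.02 to 0.18), and whether they share a batch was not tested. The largest correlation, 0.25, joined NG+CD200Fc replicate 3 and HG replicate 1. Not every library correlated best with its own number, so the numbers were not taken as pairs. The replicate block gave 18, 19, 8 and 0 calls in HG against NG, HG+CD200Fc against HG, the interaction and NG+CD200Fc against NG. Of the genes not called, 9 of 18, 8 of 18, 8 of 27 and 4 of 25 in HG against NG, HG+CD200Fc against HG, HG+CD200Fc against NG+CD200Fc and the interaction were called in at least 1 alternative, and 0 of 33 in NG+CD200Fc against NG. Log2 fold changes rose with exon length across 14497 genes (not independent), with a Spearman correlation of 0.276 in NG+CD200Fc against NG, 0.242 in HG+CD200Fc against NG+CD200Fc, 0.183 in HG against NG, 0.151 in HG+CD200Fc against HG and 0.00525 in the interaction. Depth limits mainly *Nqo1*, with 21 reads in all, and *Gstp1*.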
